A study of Rattus norvegicus with 24 samples.

Results

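The steady-state transcriptome described here is that of the lumbar dorsal root ganglia (DRG) of the 4 saline-saline rats, taken from 24 rats in 6 groups. These were male Sprague-Dawley rats aged 3 months, given saline for 10 days as the vehicle of vincristine and then saline for 5 days as the vehicle of the opioids. They had received injections and behavioural tests on the schedule of the treated rats and were killed under pentobarbital, so they were vehicle controls and not unhandled animals. The 4 arrays were chosen by this label alone, 1 array per rat, and are called rats 1 to 4. No treatment was compared.

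The DRG holds the cell bodies of the primary sensory neurons, which carry touch, position, temperature and pain from the body to the spinal cord. Small neurons, many of them nociceptors, use peptide transmitters or glial-derived trophic factor receptors, and large neurons with myelinated axons serve touch and proprioception. Each soma is wrapped by satellite glia and each axon by Schwann cells, and resident macrophages, vessels and connective tissue fill the ganglion. Total RNA of whole ganglia mixes all of these cells, so more cells of a type and more RNA per cell cannot be told apart.

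The Illumina RatRef-12 array carried 22517 probes, and each came with a signal and with a detection p, the share of negative controls at least as bright. A probe was called detected where this p did not exceed 0.0005, the limit stated in the methods. Here this means that no control was as bright. The deposited signals had medians of 54.8, 50.5, 68.6 and 63.7 in rats 1 to 4, and 6626, 6319, 6551 and 6707 probes were detected. Levels below are background-corrected and quantile-normalized log2 signals, and a percentile is the place of the mean over the 4 rats among all probes. Probes differ in brightness for equal amounts of target, so ranks order probe signals and not transcript amounts.

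In all 4 rats 6133 of 22517 probes were detected (27.2%), 913 in 1 to 3 rats and 15471 in none (68.7%). By gene, 4829 of 13336 genes with a named probe were detected in 4 of 4 rats (36.2%), 599 in 1 to 3 rats and 7908 in none (59.3%). Detected probes had a median normalized signal of 8.71 on the log2 scale, and probes detected in no rat had one of 4.47. A gene called not detected was not above the controls at this cutoff, which differs from being absent. At a detection p of at most 0.05, 2044 of those 7908 genes were above the controls in 4 of 4 rats, and 4404 genes in none (33.0% of all genes).

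A pair of gene classes gives a rough view of the calls, though their members were chosen with earlier results of these data known. Of 106 measured genes of cytosolic ribosomes, the respiratory chain and glycolysis, which every cell uses, 93 were detected in 4 of 4 rats (87.7%) and 11 in none, among them Rpl5, Rpl11, Rps9, Rps19, Cox6c and Ndufs4. Of 58 measured genes of liver plasma proteins, intestine, pancreas, kidney, testis, retina and lens, 2 were detected in 4 of 4 rats (3.45%) and 54 in none. Among 422 genes with 2 or more probes, 194 had a probe detected in 4 of 4 rats, and 142 of these also had another probe detected in none. A missing call for a single probe was thus common even where another probe of the gene was bright.

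**Figure D1:**
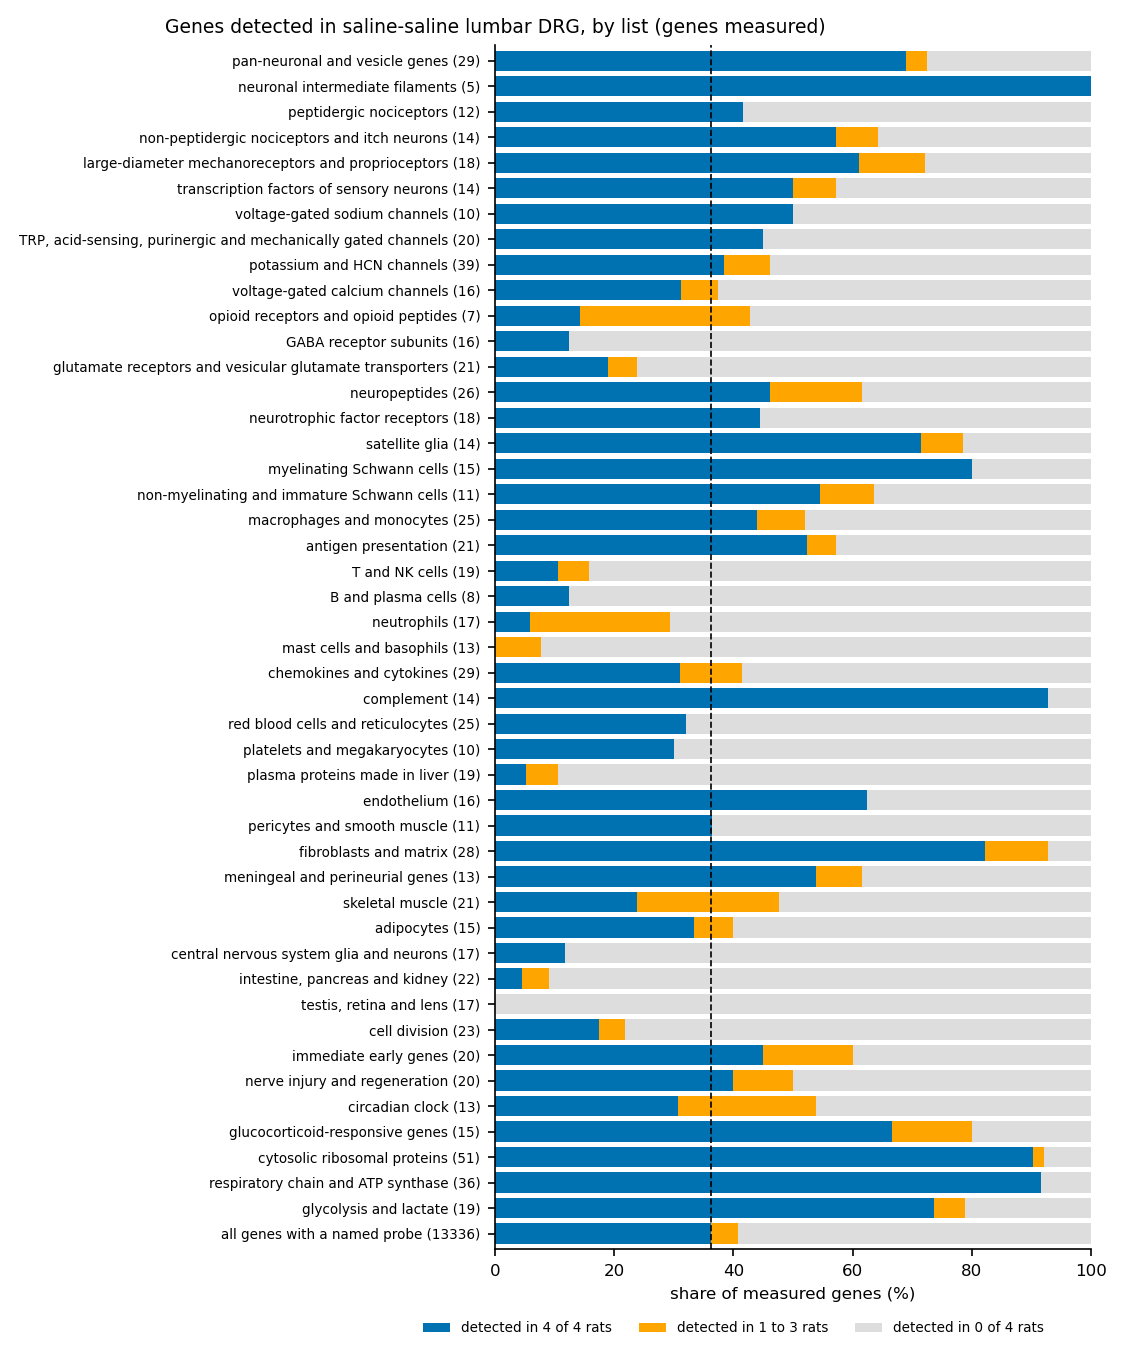
Share of measured genes (%, horizontal axis) detected in 4 of 4, in 1 to 3 and in 0 of 4 saline-saline rats, for 46 gene lists and for all 13336 genes, with the number of measured genes in brackets; the dashed line marks the 36.2% of all genes. Ribosomal, respiratory chain, complement, fibroblast and Schwann cell lists lie far above the line, and lymphocyte, neutrophil, mast cell and foreign tissue lists lie far below it.

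The brightest signals included markers of peripheral neurons and Schwann cells, as the label of the tissue says. The highest signal of any named gene was that of Tuba1b, an alpha-tubulin, at 14.25, 14.35, 14.25 and 14.20 in rats 1 to 4, and Tuba1a, Tubb2a and Tubb4b were also among the 20 genes with the highest signals. Next came Pmp22, a structural protein of Schwann cell myelin, at 14.35, 14.25, 14.00 and 14.35. Prph, which encodes peripherin, the intermediate filament of peripheral neurons, ranked 7 of 13336 genes, with 13.85, 13.87, 14.13 and 13.94. Probes of Tuba1b, Pmp22 and Prph thus stood near the top together, with ranges between rats of 0.15, 0.34 and 0.28. The tubulins belong to a family of close copies, and their probes may share targets.

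The other genes at the top included markers of several compartments. They included Nefl, the light neurofilament chain (mean 13.90), Sncg, a synuclein of peripheral neurons (13.71), and Ptgds, the prostaglandin D synthase of leptomeninges (13.90). Col1a2, a chain of type I collagen (13.70), represented connective tissue. Fstl1, a secreted glycoprotein (14.12), was not assigned to a cell type. Fth1, Calm2, Ppia, Rplp0, Dbi, Cox6a1, Tpt1, Rtn4, Lgals1, Pcp4, Atp6v0c, Rpl23a, Mt3, Map1lc3b, Rtn1, B2m, Prnp, Skp1 and Ctsb completed the first 30, with means from 14.10 for Fth1 to 13.49 for Ctsb. Of the 100 brightest probes of each array, 81 were shared by all 4 rats, and these 100 probes held 13.5 to 15.8% of the summed signal of an array.

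Pan-neuronal genes were detected in most cases and were bright. Of 29 measured pan-neuronal and vesicle genes, 20 were detected in 4 of 4 rats (69.0%, against 36.2% of all genes), and the median of the list lay at percentile 95.5, against 60.9 for all genes. Among the brightest were Sncg, Gap43, the growth-associated protein of axons (12.99 ± 0.06, SD, n = 4), Stmn2, a tubulin-binding protein of growing axons (12.94 ± 0.25), and Snap25, a subunit of the vesicle fusion complex (12.30 ± 0.06). Rbfox3, which encodes the nuclear antigen NeuN, Map2 and Elavl3 were not detected at 0.0005, but had a detection p of at most 0.05 in 4 of 4 rats, with means of 5.99, 5.62 and 5.49. Most of these genes varied little between rats, with a median SD of 0.128 over the detected members. Sv2b, a glycoprotein of synaptic vesicles, was the exception, with 13.81, 12.43, 12.63 and 12.45, so that rat 1 lay above the 3 other rats.

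All 5 neuronal intermediate filament genes were detected in 4 of 4 rats. Their means were 13.95 for Prph, 13.90 for Nefl, 11.68 for Nefm, 10.24 for Nefh and 8.64 for Ina, the internexin chain. Peripherin marks chiefly small neurons and the heavy chain Nefh large ones, and both were present in every ganglion sample.

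Among markers of peptidergic nociceptors, 5 of 12 measured genes were detected in 4 of 4 rats (41.7%, against 36.2% of all genes). Tac1, the precursor of substance P, had 12.27, 12.24, 12.10 and 11.85 in rats 1 to 4. Calcb, the beta form of the calcitonin gene-related peptide, had 10.95, 11.09, 10.85 and 10.72. Trpv1, the receptor for heat and capsaicin, had 10.33, 10.71, 10.36 and 10.72, and for each of these the spread between rats stayed under 0.5. Adcyap1, a peptide of the secretin family (9.74 ± 0.19), and Scg2, a secretogranin (7.89, 6.78, 6.79 and 6.53), were the others. The probe of Calca, the alpha form of the same peptide, lay among the controls, at 4.33 to 4.41 with detection p-values of 0.384 to 0.641. Gal, the precursor of galanin, was below the cutoff with a mean of 6.24 but had p-values of 0.00121 to 0.00242.

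Markers of non-peptidergic nociceptors and itch neurons were detected for 8 of 14 genes (57.1%, against 36.2% of all genes). They were Ret, the signalling receptor of the glial-derived factors (9.52 ± 0.21), Sst, somatostatin (9.36 ± 0.21), Prkcq, a protein kinase C (9.31 ± 0.12), Gfra1 (8.44 ± 0.15), Mrgprx3 (8.30 ± 0.24), Gfra2 (7.92 ± 0.23), Lpar3 (7.85 ± 0.29) and Htr1d (6.76 ± 0.28). Mrgprd, a receptor of nonpeptidergic fibres, was at 4.39 to 4.57, with no rat at a detection p of at most 0.05. Markers of large neurons were detected for 11 of 18 genes (61.1%). Pvalb, the calcium-binding parvalbumin of proprioceptors, had 9.73, 9.90, 10.02 and 10.03, Spp1, osteopontin, averaged 12.65 ± 0.09, and Ntrk3, the receptor of neurotrophin-3, averaged 9.56 ± 0.06. Small and large neuron classes were thus both represented, and the summed RNA does not give their shares. Kcna1, Kcna2, Runx3, Esrrg and Slc17a7 of the same list were not detected.

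Of 14 measured transcription factors that specify sensory neurons, 7 were detected in 4 of 4 rats, with a list median at percentile 74.4. The brightest were Klf7 (11.28 ± 0.14), Drgx, a homeobox factor of the DRG and dorsal horn (9.68 ± 0.30), Maf (9.46 ± 0.26) and Isl2 (9.45 ± 0.13), followed by Runx1, Isl1 and Pou4f2. Neurog1 and Neurod1, which act in the embryonic ganglion, and Pou4f3 had no rat at a detection p of at most 0.05.

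Voltage-gated sodium channels set the excitability of the soma and axon, and the channels Nav1.8 and Nav1.9 are largely restricted to nociceptors. Scn10a, which encodes Nav1.8, had the highest signal of the group, at 12.717, 13.092, 12.811 and 12.998, and ranked 73 of 13336 genes. Scn11a, which encodes Nav1.9, had 10.91, 11.07, 10.89 and 10.95. The auxiliary subunits Scn4b (10.89, 11.14, 10.97 and 11.02) and Scn3b (10.61, 10.75, 10.49 and 10.48) were also bright, and the alpha subunit Scn1a had 8.92, 8.89, 8.99 and 9.08. These 5 of 10 measured genes were detected in all rats with an SD of at most 0.17. Scn8a (mean 5.24) and Scn2a (5.00) had p-values of at most 0.05 in 4 of 4 rats, Scn2b (4.57) in 2 and Scn4a (4.72), the skeletal muscle channel, in 1. Scn9a, which encodes Nav1.7, gave 4.40, 4.36, 4.36 and 4.46, no higher than the controls.

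Other channels were detected about as often as genes overall. Of the ligand-gated, acid-sensing, heat-gated and mechanically gated channels, 9 of 20 were detected, led by Htr3a, a serotonin-gated channel (11.11 ± 0.15), Trpv1, Asic3, a proton-gated channel of nociceptors (9.11 ± 0.16), Htr3b (9.11 ± 0.18) and P2rx6 (8.74 ± 0.18). Trpa1, the receptor of irritants, was detected at 6.73 ± 0.20, and Trpm8, the cold receptor, was not, though its p-value was at most 0.05 in 4 of 4 rats. Of 39 potassium and HCN channel genes 15 were detected (38.5%), led by Kcnd1, an A-type channel (11.64 ± 0.12), Kcnk1, a leak channel (10.75 ± 0.16), and Kcns3, a modulatory subunit (9.94 ± 0.11). Of 16 calcium channel genes 5 were detected (31.3%): Cacnb3 (11.50 ± 0.13), Cacna2d1, the binding site of gabapentin (10.29 ± 0.25), Cacng2 (8.87 ± 0.18), Cacna1c (7.62 ± 0.21) and Cacnb1 (7.11 ± 0.16).

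Of 7 measured opioid receptor and peptide genes, 5 had a detection p of at most 0.05 in 4 of 4 rats, and the list median lay at percentile 66.5, against 60.9 for all genes. At the cutoff of 0.0005, 1 of the 7 was detected in 4 of 4 rats (14.3%, against 36.2% of all genes): Oprl1, the nociceptin receptor, at 7.70, 8.26, 8.12 and 8.37. Pnoc, its ligand precursor, had 6.81, 6.40, 6.56 and 6.19 and was detected in 2 rats, and Penk, the enkephalin precursor, had 5.73, 6.67, 6.28 and 6.26 and was detected in 1. Pomc, the endorphin precursor, lay at 5.77 to 6.01, with a detection p of 0.00242 in every rat. Oprd1, the delta receptor, lay at 4.74 to 5.00, with p-values of 0.0097 to 0.0412. Oprm1, the mu receptor at which morphine and oxycodone act, had 4.71, 4.64, 4.57 and 4.63, with p-values of 0.0509 to 0.119. Pdyn, the dynorphin precursor, had 4.61, 4.83, 4.49 and 4.49. The mu receptor signal was therefore not told from the controls on any array, which bounds what this probe can show and says nothing of the protein.

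GABA receptors split by type. Both subunits of the metabotropic receptor were detected: Gabbr2 at 11.05, 11.21, 11.21 and 11.44, and Gabbr1 at 7.40, 7.87, 7.65 and 7.57. Of the 14 measured subunits of the ionotropic receptor, none was detected in any rat, and Gabrg1, a gamma subunit, came to 5.36, 5.50, 5.43 and 5.46 with a detection p of 0.00364 in each. Gabra5 and Gabrg1 were the only ionotropic subunits with p-values of at most 0.05 in 4 of 4 rats.

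Glutamate signalling genes were detected for 4 of 21 (19.0%, against 36.2% of all genes). Slc17a6, the vesicular glutamate transporter of most sensory neurons, averaged 11.68 ± 0.18, Grin1, the obligatory NMDA receptor subunit, 9.46 ± 0.16, Grik1, a kainate receptor subunit, 9.08 ± 0.09, and Gria2, an AMPA receptor subunit, 7.68 ± 0.22. None of the 5 measured metabotropic glutamate receptors was detected. Neuropeptide genes were detected for 12 of 26 (46.2%), led by Tac1, Scg3, a secretory granule protein (12.02 ± 0.18), Nmb, neuromedin B (10.91 ± 0.13), Calcb, and Chgb, a chromogranin (10.77 ± 0.05). Crh, corticotropin-releasing hormone, had 8.08, 7.85, 6.82 and 7.84, low in rat 3.

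Of 18 neurotrophic factor receptor genes, 8 were detected in 4 of 4 rats (44.4%, against 36.2% of all genes). Ngfr, the p75 receptor of all neurotrophins, was brightest at 11.84, 12.28, 11.95 and 12.20, followed by Ntrk3, Ret, Gfra3, the artemin receptor (8.95 ± 0.08), Ntrk2, the receptor of brain-derived neurotrophic factor (8.71 ± 0.34), Gfra1, Igf1r (7.93 ± 0.27) and Gfra2. Gfra4, Il6st, Lifr, Cntfr, Insr, Egfr, Erbb2, Erbb3, Erbb4 and Sort1 were not detected, of which Erbb3, a neuregulin receptor of Schwann cells, had p-values of at most 0.05 in 4 of 4 rats.

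**Figure D2:**
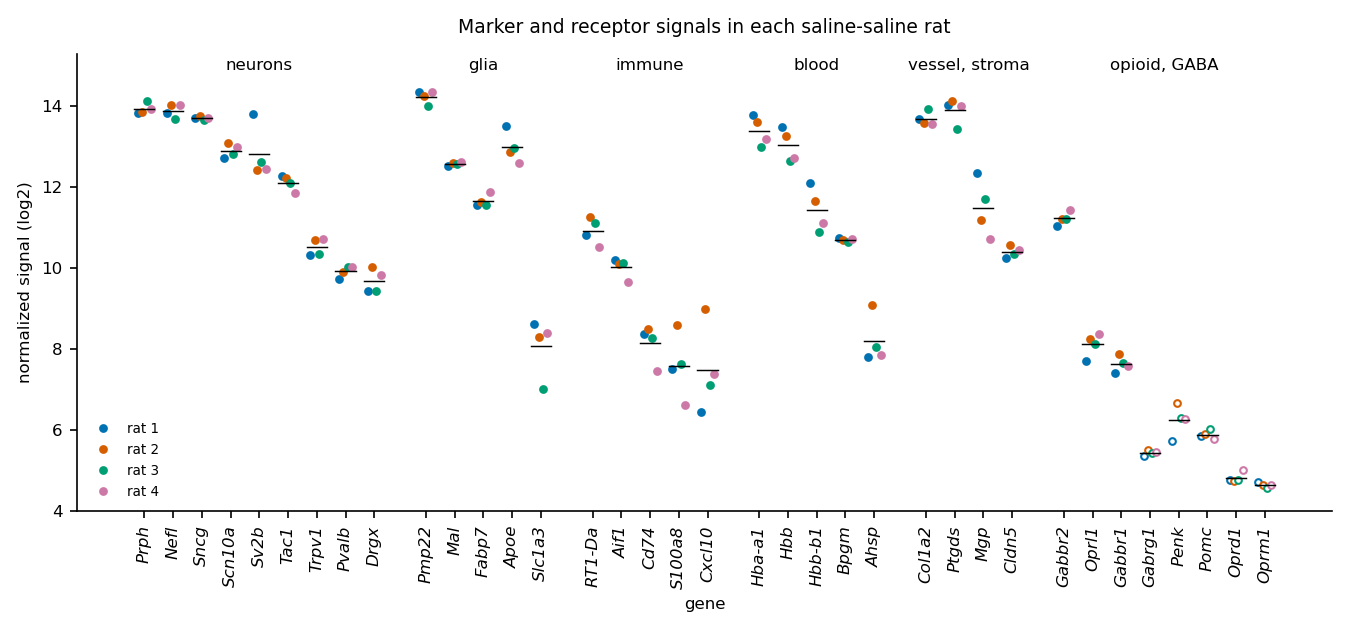
Normalized log2 signal (vertical axis) of marker and receptor genes in each of the 4 saline-saline rats (coloured points) with the mean over rats (bars); filled points mark genes detected in 4 of 4 rats and open points genes that were not. Most points of a gene lie close together, while Sv2b, Slc1a3, Cd74, S100a8, Cxcl10, Hbb-b1, Ahsp and Mgp spread over more than 1 unit.

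Glial genes were detected more often than genes overall. Of 15 measured genes of myelinating Schwann cells 12 were detected in 4 of 4 rats (80.0%), of 14 of satellite glia 10 (71.4%) and of 11 of non-myelinating Schwann cells 6 (54.5%). After Pmp22 came Mal, a lipid raft protein of myelin, at 12.52, 12.61, 12.57 and 12.62, one of the least variable genes named here, and Cryab (12.53 ± 0.12), Cnp (11.17 ± 0.12) and Egr2, the transcription factor that drives myelination (10.17 ± 0.20). Mbp, myelin basic protein, averaged 8.60 ± 0.11, and Mag was not detected, at 4.56 to 4.70.

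Satellite glia were marked by Fabp7, a fatty acid binding protein, at 11.55, 11.64, 11.57 and 11.88, by Apoe, apolipoprotein E, at 13.50, 12.86, 12.97 and 12.60, and by S100b (12.26 ± 0.16). Slc1a3, the glutamate-aspartate transporter, had 8.62, 8.31, 7.01 and 8.39, so that rat 3 lay more than 1 unit below the others. Kcnj10, their inward rectifier, was at 4.37 to 4.65 and was not detected. Gfap, which satellite glia and Schwann cells share with astrocytes, was detected at 7.99, 8.55, 8.20 and 8.67.

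Immune genes divided by cell type. Of 25 measured macrophage and monocyte genes 11 were detected in 4 of 4 rats (44.0%, against 36.2% of all genes). The brightest were Ctsb, a lysosomal protease of many cells (13.49 ± 0.04), Lgals3, galectin-3 (12.25 ± 0.03), Aif1, the macrophage protein Iba1 (10.20, 10.10, 10.12 and 9.65), and Fcer1g (9.97 ± 0.24). Spi1, Ptprc, Vsig4 and Fcgr2b had no rat at a detection p of at most 0.05. Antigen presentation genes were detected for 11 of 21 (52.4%), among them B2m, the light chain of class I molecules (13.51 ± 0.08), and RT1-Da, a class II chain, at 10.82, 11.26, 11.11 and 10.52. Cd74, the invariant chain, had 8.37, 8.49, 8.27 and 7.46, low in rat 4, which was also lowest for RT1-Da and Aif1. Over the detected members, the antigen presentation mean was 8.81, 9.23, 8.94 and 8.73, and the macrophage mean 9.65, 9.68, 9.71 and 9.37. The RT1 genes form a family of similar and polymorphic copies, so each probe may read more than 1 gene.

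Complement was the immune group detected most often, with 13 of 14 measured genes in 4 of 4 rats (92.9%). They included Cd59b, an inhibitor of the terminal complex (11.95 ± 0.05), Serping1, the inhibitor of the first component (10.36 ± 0.22), C1r (9.78 ± 0.09), C1s (9.70 ± 0.57) and C2 (9.69 ± 0.15). C1qa, C1qb and C1qc, which macrophages make, averaged 7.68, 8.83 and 8.27.

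Lymphocytes, granulocytes and mast cells left little signal. Of 19 T and NK cell genes 2 were detected in 4 of 4 rats: Thy1 (10.81 ± 0.09), which rat neurons and fibroblasts also express, and Ccl5 (6.56 ± 0.20). The defining chains Cd3d, Cd3e, Cd3g, Cd247, Cd4 and Cd8a were not detected, although Cd3g had a p-value of at most 0.05 in 4 of 4 rats. Of 8 B and plasma cell genes 1 was detected, Xbp1 (10.25 ± 0.16), a stress factor found in many secretory cells, and of 13 mast cell and basophil genes 0, with Cma1, mast cell chymase, detected in 1 rat. Of 17 neutrophil genes S100a8 was detected, at 7.52, 8.60, 7.62 and 6.62, highest in rat 2 and lowest in rat 4, and its partner S100a9 lay among the controls at 4.31 to 4.41.

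Chemokine and cytokine genes were detected for 9 of 29 (31.0%, against 36.2% of all genes). Il33, an alarmin of barrier and stromal cells (9.62 ± 0.23), and Cxcl12 (8.96 ± 0.30) were brightest, and Tnf, Il6, Il10, Il1a, Ccl3 and Cxcl2 had no rat at a detection p of at most 0.05. Cxcl10, an interferon-induced chemokine, had 6.45, 8.98, 7.12 and 7.37, with rat 2 far above the others.

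Haemoglobin transcripts were bright in every ganglion sample. Hba-a1, an alpha-globin, had 13.784, 13.614, 13.002 and 13.186, and Hbb, a beta-globin, had 13.49, 13.27, 12.66 and 12.72. Hbb-b1, another beta-globin, had 12.10, 11.66, 10.90 and 11.11. All 3 were highest in rat 1 and lowest in rat 3, a range of 0.78 to 1.20. Ahsp, the chaperone of free alpha-globin, followed another order, with 7.79, 9.10, 8.04 and 7.86, highest in rat 2. Bpgm, the bisphosphoglycerate mutase of red cells, differed by only 0.10 between rats, at 10.75, 10.69, 10.65 and 10.72. Of 25 measured red cell genes 8 were detected in 4 of 4 rats (32.0%, against 36.2% of all genes). Alas2, which red cell precursors need for haem, had no rat at a detection p of at most 0.05. The globin genes are near-identical copies and their probes may share targets.

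Of 10 platelet genes 3 were detected (a share near the 36.2% of all genes), Gp1bb (9.33 ± 0.15), Vwf, which endothelium also makes (8.61 ± 0.18), and Pf4 (7.57 ± 0.24). Of 19 liver-made plasma protein genes the one detected in 4 of 4 rats was Tf, transferrin, which glia also make, at 11.41, 11.38, 11.50 and 11.36, and Apob, Fgb, Fgg, Ahsg, Hpx and F2 had no rat at a p of at most 0.05.

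Of 28 fibroblast and matrix genes 23 were detected in 4 of 4 rats (82.1%, against 36.2% of all genes), led by Col1a2 (13.68, 13.59, 13.94 and 13.57), Dcn, decorin (13.07 ± 0.19), Gsn (12.64 ± 0.19), Sparc (12.43 ± 0.18) and Lum (11.52 ± 0.15). Mgp, matrix Gla protein, had 12.35, 11.20, 11.71 and 10.73, a range of 1.62. Of 16 endothelial genes 10 were detected (62.5%), led by Ramp2 (10.55 ± 0.11) and Cldn5, the tight junction claudin, at 10.25, 10.58, 10.36 and 10.45. Of 11 pericyte and smooth muscle genes 4 were detected (36.4%, against 36.2% of all genes), and of 13 meningeal and perineurial genes 7, with Ptgds at 14.03, 14.13, 13.44 and 14.00.

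Of 21 skeletal muscle genes 5 were detected in 4 of 4 rats (23.8%, against 36.2% of all genes) and 5 in 1 to 3, with a list median at percentile 65.3. Acta1, skeletal actin, had 8.56, 8.68, 8.57 and 9.10, and Ckm, muscle creatine kinase, 6.58, 7.04, 6.94 and 7.55, both highest in rat 4. Tpm1 and Pvalb, also on that list, are made by other cells of the ganglion, and the fast myosins Myh2 and Myh4 had no rat at a p of at most 0.05. Of 15 adipocyte genes 5 were detected (33.3%, near the share of all genes), without Adipoq or Lep, and of 17 genes of the central nervous system 2, Gfap and Gad1 (6.92 ± 0.31), without Aqp4, Opalin, Gad2 or Slc6a5.

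Of the genes chosen as foreign to the tissue, 0 of 17 testis, retina and lens genes and 1 of 22 intestine, pancreas and kidney genes were detected in 4 of 4 rats. That gene was Pnlip, pancreatic lipase, with 8.09, 8.10, 8.27 and 8.50. Ins1, Ins2, Gcg, Prss1, Prss2 and Ctrb1 of the same organ had no rat at a detection p of at most 0.05.

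State-dependent genes were at intermediate levels, and 33 of 88 were detected in 4 of 4 rats (37.5%, against 36.2% of all genes). Of 20 immediate early genes 9 were detected in 4 of 4 rats, led by Egr2, Dusp1 (9.38 ± 0.14), Klf6 (9.38 ± 0.06) and Jun (8.44 ± 0.17), and Fos averaged 6.03 without reaching the cutoff. Of 20 nerve injury and regeneration genes 8 were detected, led by Gap43, Hspb1, a small heat shock protein (12.35 ± 0.19), and Anxa1 (9.65 ± 0.17). Atf3, the injury-induced transcription factor, gave 5.71, 5.84, 5.69 and 5.75, below the cutoff in every rat. Of 15 glucocorticoid-responsive genes 10 were detected (66.7%), led by Tsc22d3 (11.72 ± 0.06), and of 23 cell division genes 4 (17.4%), Pcna (10.57 ± 0.12), Mcm7, Mcm6 and Ccnb2. Clock genes were detected for 4 of 13 (30.8%, near the share of all genes), with Per1, Per2, Cry1 and Nr1d1 between 7.56 and 7.77.

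The sequence upstream of the genes differed with detection. The RefSeq promoter table (build GRCr8) held 300 bases, 250 before and 50 after the start, for 10980 of the 13336 genes (82.3%). CpG dinucleotides are depleted from most of the mammalian genome and kept in promoters of widely used genes, and the ratio of observed to expected CpG measures this. The median ratio was 0.788 for the 4035 genes detected in 4 of 4 rats, 0.725 for the 490 detected in 1 to 3, and 0.440 for the 6455 detected in none. A ratio over 0.6 was found in 76.7% of the genes detected in 4 of 4 rats and in 39.6% of those detected in none, against 54.5% of all. Median GC content was 61.0% in the detected class and 54.7% in the class detected in none. Genes are not independent replicates, and no test was made.

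Motifs were searched on both strands of the 300 bases. TATAAA, the core of the TATA box, was present in 6.94% of promoters of detected genes, 15.6% of promoters of genes detected in none and 12.1% of all. CCAAT was present in 38.3% and 37.3%, against 37.7% of all, so that it did not go with detection. By list, the median CpG ratio was 0.884 for ribosomal proteins (41 of 51 genes with a promoter) and 0.873 for the respiratory chain (32 of 36), against 0.258 for liver-made plasma proteins (16 of 19) and 0.264 for intestine, pancreas and kidney (21 of 22), where 13 of 21 held TATAAA. The tissue's own cell types were not uniformly rich in CpG. Satellite glia had a median of 0.549 (13 of 14) and myelinating Schwann cells 0.352 (13 of 15), though most of their genes were detected.

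**Figure D3:**
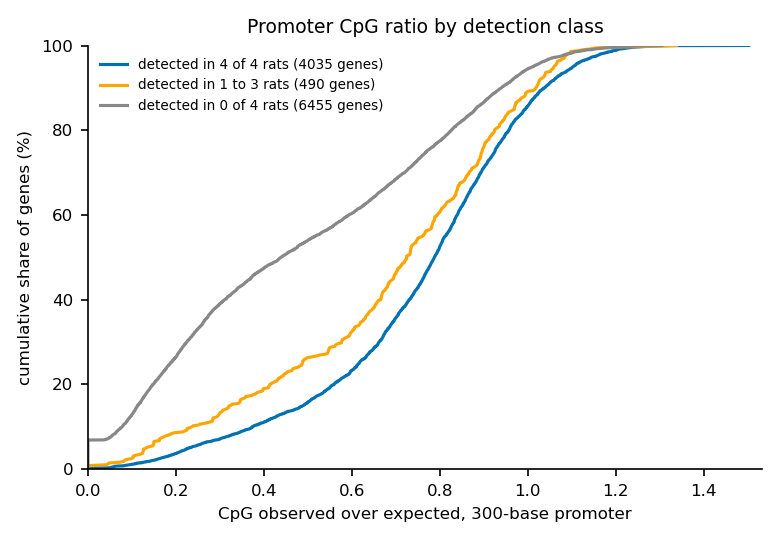
Cumulative share of genes (%, vertical axis) by the ratio of observed to expected CpG in the 300-base promoter (horizontal axis), for genes detected in 4 of 4 rats, in 1 to 3 rats and in 0 of 4 rats. The curve of genes detected in none rises earliest, with a median of 0.440, and the curve of genes detected in 4 of 4 rats latest, with a median of 0.788.

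The 100 bases before the start of 6 genes, 5′ to 3′ on the strand of the gene, show these types beside their signals. Capitals mark TATAAA and CCAAT on either strand (ATTGG is CCAAT on the opposite strand). They are a ribosomal gene used by all cells, 3 neuronal genes, a globin from blood, and an insulin gene that was not detected.
Rplp0 (chr12:46718391-46718490, minus strand): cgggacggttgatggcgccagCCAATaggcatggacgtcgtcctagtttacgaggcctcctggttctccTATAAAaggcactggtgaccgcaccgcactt
Tac1 (chr4:36645483-36645582, plus strand): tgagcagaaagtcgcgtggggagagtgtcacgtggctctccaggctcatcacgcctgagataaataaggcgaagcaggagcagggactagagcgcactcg
Scn10a (chr8:128340299-128340398, minus strand): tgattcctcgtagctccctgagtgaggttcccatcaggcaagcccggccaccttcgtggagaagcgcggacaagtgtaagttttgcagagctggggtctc
Prph (chr7:132097189-132097288, plus strand): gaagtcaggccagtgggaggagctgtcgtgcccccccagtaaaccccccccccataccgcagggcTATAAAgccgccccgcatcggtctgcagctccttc
Hbb-b1 (chr1:167643521-167643620, minus strand): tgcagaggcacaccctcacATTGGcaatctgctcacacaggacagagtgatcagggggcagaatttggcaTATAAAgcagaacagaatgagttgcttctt
Ins2 (chr1:207273806-207273905, minus strand): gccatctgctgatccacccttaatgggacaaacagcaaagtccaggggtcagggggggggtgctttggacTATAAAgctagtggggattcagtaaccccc

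Over the full 300 bases these promoters held 22 CpG in Rplp0 and 22 in Tac1, 13 in Prph, 11 in Scn10a, 1 in Hbb-b1 and 1 in Ins2. TATAAA began 31 bases before the start in Rplp0, 35 in Prph, 30 in Hbb-b1 and 30 in Ins2. Hbb-b1 (mean signal 11.44) and Ins2 (detected in no rat) thus shared the CpG-poor form with a TATA motif, and the letters alone did not separate them.

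The spread between the 4 rats was small for most genes. Over the 6133 probes detected in 4 of 4 rats the median SD was 0.147 on the log2 scale, which gives a standard error of 0.0734 for a mean over 4 rats, or about 5.22% of the level. The middle range of SDs was 0.101 to 0.207. Dim probes varied more, with a median SD of 0.166 for the 2068 probes with means from 6 to 8 and 0.119 for the 305 probes at 12 or higher. Across detected probes the arrays correlated pairwise with a Pearson r of 0.967 to 0.990, and the lowest values, 0.967 to 0.980, all involved rat 1.

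A range of at least 1, a 2-fold difference between the highest and the lowest rat, was found for 286 of the 6133 probes (4.66%) and 141 of 4829 genes (2.92%). Of these 286 probes, 243 were highest in rat 1, against 15 in rat 2, 16 in rat 3 and 12 in rat 4. The lowest rat was rat 4 for 134 and rat 2 for 116. Without rat 1, 48 probes reached a range of 1, so the count rests on that array.

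**Figure D4:**
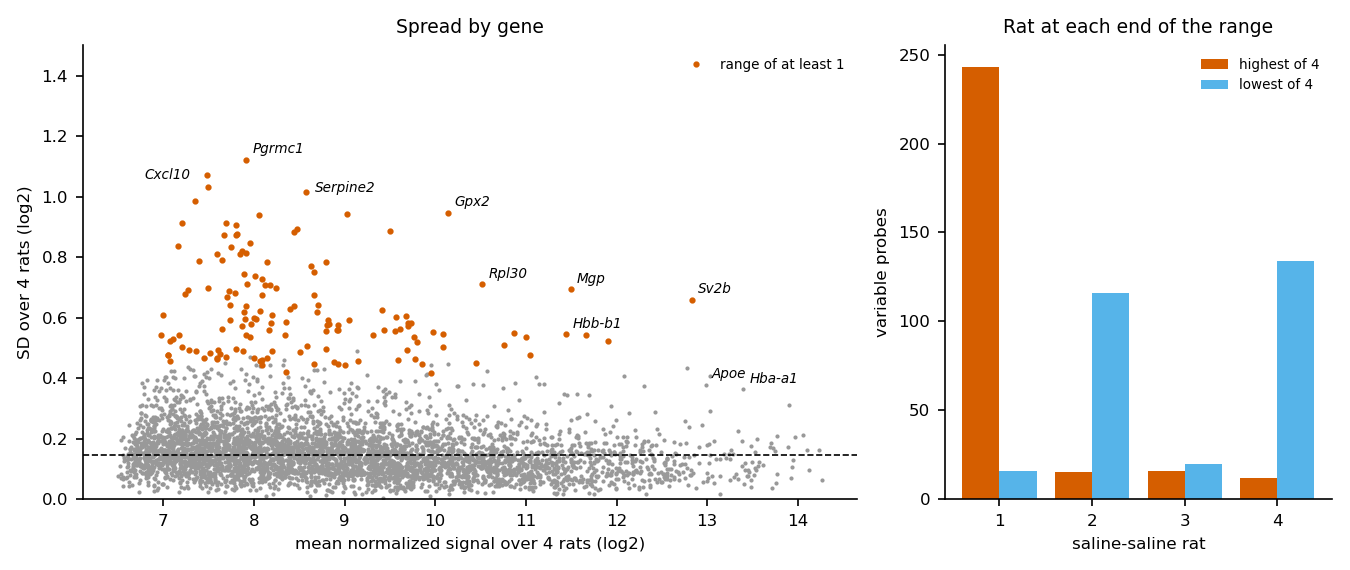
Left, SD over the 4 saline-saline rats against mean normalized signal (both log2) for each gene detected in 4 of 4 rats, with genes of a range of at least 1 in orange and the median SD of 0.147 dashed. Right, for the 286 probes with a range of at least 1, how many were highest and lowest in each rat; rat 1 was highest for 243.

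In the table of signals the 24 arrays fall into 4 blocks of 6 adjacent columns, here called runs, and every group has 1 array in each. Each saline-saline rat thus stands in another run, and rat and run cannot be told apart from these 4 arrays. The sources used here do not say what a run is. The mean of the 5 other arrays of a run, all of treated groups, was therefore set beside each rat. Of the 243 variable probes highest in rat 1, the other arrays were highest in run 1 too for 237. Of the 43 highest in rats 2, 3 or 4, this held for 11. Across the detected probes, the deviation of a rat from the mean of the 4 correlated with that of the other arrays of its run with an r of 0.864 for rat 1, 0.631 for rat 2, 0.223 for rat 3 and 0.608 for rat 4. These are correlations across probes, which share arrays and normalization.

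After the mean of the other arrays of its run was subtracted from each rat, 81 probes reached a range of 1, of which 52 were among the 286, and the median SD was 0.110. The range left after subtraction varied by degrees and did not form 2 separate kinds. Among genes with a range of at least 1 before, it ran from 3.51 down to 0.0772. Genes that followed their run come first. Pgrmc1, a haem-binding membrane protein, had 9.56, 7.09, 7.65 and 7.35 in rats 1 to 4, beside 9.27, 7.11, 7.66 and 7.49 for the other arrays of runs 1 to 4. Cnmd, chondromodulin, had 8.99, 6.73, 7.40 and 6.87, beside 8.91, 6.56, 7.30 and 6.67. Hsp90aa1, a cytosolic chaperone, had 10.82, 9.02, 9.23 and 8.93, beside 10.77, 9.02, 9.49 and 9.02. In all of these, as for Adamts2, Ywhag, B4galt6, Eloc, Pam, Kctd9, Ik and Nop53, rat 1 and its run were high together.

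Of 46 detected ribosomal protein genes, 5 had a range of at least 1 (Rpl7, Rpl24, Rpl30, Rps12 and Rps3a), whereas 2.92% of all detected genes did. Rpl30 had 11.52, 10.16, 10.47 and 9.90, beside 11.46, 9.92, 10.15 and 9.85 in the runs. Mgp also followed its run, with other arrays at 12.21, 11.16, 11.60 and 11.24. Ahsp was highest in run 2 as in rat 2, with other arrays at 8.74, 9.32, 8.67 and 8.85. The 33 detected genes on the respiratory chain list had a median SD of 0.0884, and 0 had a range of 1, although Ndufs5, a subunit of complex I outside the list, had one of 1.16.

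Other genes differed between rats in a way the run did not share. Serpine2, a serine protease inhibitor, had 9.38, 7.09, 8.92 and 8.92, with rat 2 low, beside 8.76, 9.15, 9.08 and 7.84 in the runs. RT1-A3, a class I antigen of the major histocompatibility complex, had 6.63, 8.48, 7.59 and 8.26, beside 9.07, 7.43, 8.63 and 7.74. Cxcl10 had the largest range of any gene detected in 4 of 4 rats, at 2.53. The other arrays of its runs were at 6.34, 6.67, 6.36 and 6.95, so that its high value in rat 2 was not seen in run 2. S100a8, Sv2b, Crh and Slc1a3 likewise differed from their runs. Of the 141 genes with a range of at least 1, 41 kept one of at least 1 after subtraction. Among the 20 genes with the largest ranges of those detected in 4 of 4 rats, Nap1l1, Lrrn1, Gpx2, Tcf4 and Clns1a also did. Each of these was nevertheless highest in the same rat and run, Gpx2 in rat and run 3 and the others in rat and run 1.

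**Figure D5:**
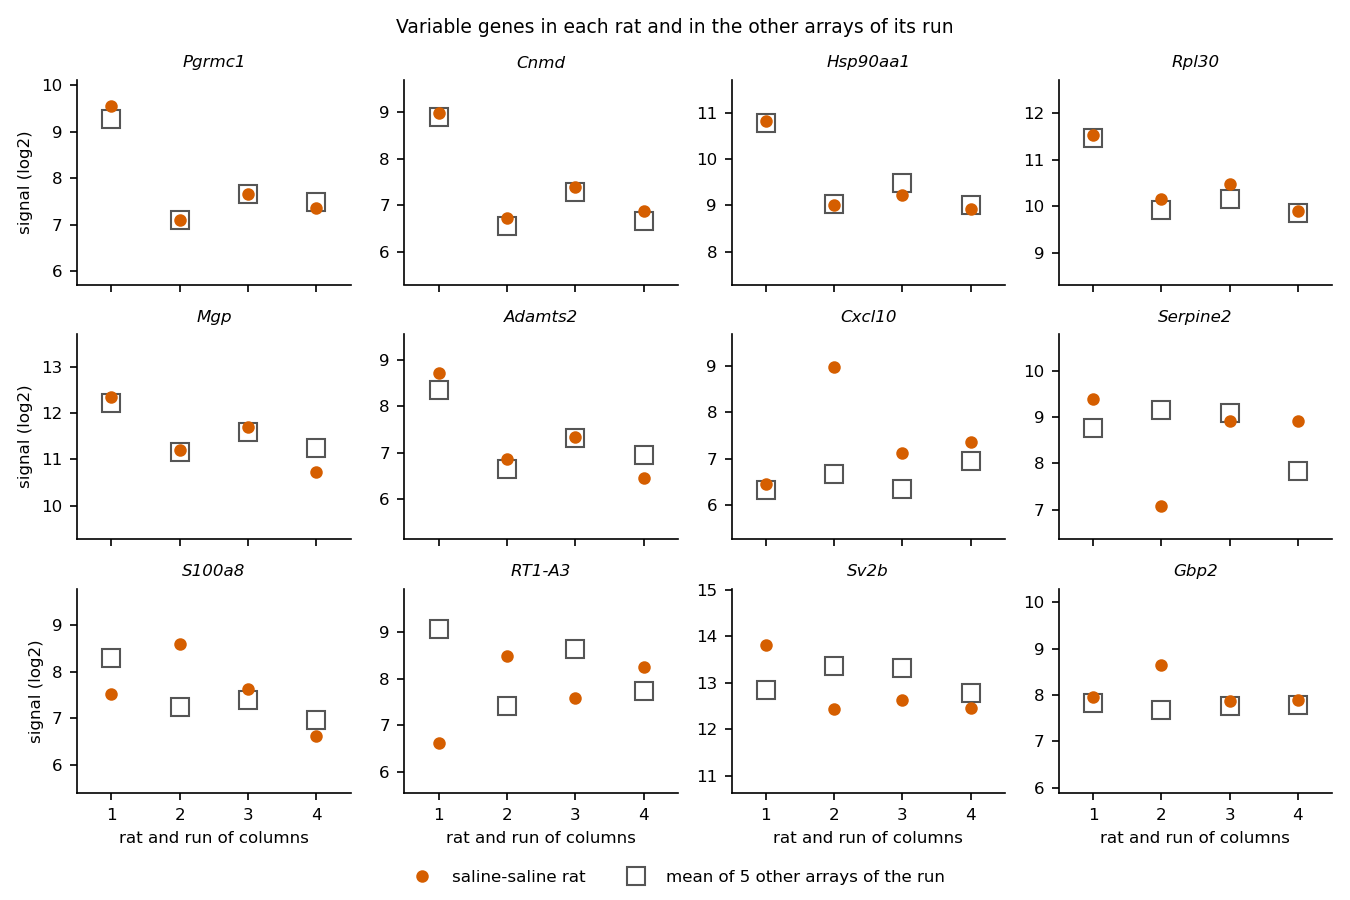
Normalized log2 signal (vertical axes, all of the same span) of 12 genes in each saline-saline rat (orange circles) and the mean of the 5 other arrays in the same run of 6 columns (grey squares). In Pgrmc1, Cnmd, Hsp90aa1, Rpl30, Mgp and Adamts2 the circle and the square lie close together, and in Cxcl10, Serpine2, S100a8, RT1-A3, Sv2b and Gbp2 at least 1 rat lies away from its run.

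By cell class, the mean over the detected members of a list moved little between rats. It ranged over 0.11 for pan-neuronal genes (11.30, 11.23, 11.19 and 11.19 in rats 1 to 4), 0.17 for myelinating Schwann cells, 0.19 for satellite glia and 0.07 for the respiratory chain. It ranged over 0.36 for transcription factors of sensory neurons and 0.40 for fibroblasts and matrix. For the 5 detected skeletal muscle genes it was 8.45, 8.61, 8.60 and 8.83, highest in rat 4. The other arrays of the runs were at 8.75, 9.12, 8.97 and 9.82 for these genes, highest in run 4 too. Among those of the 46 lists with at least 4 detected members, the mean ranged most for red cells, over 0.51, and next for antigen presentation, over 0.50, and least for potassium channels, over 0.02.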

How the data were processed

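Lumbar DRG RNA of 24 rats was hybridised to Illumina RatRef-12 arrays, 1 array per rat, and the 4 saline-saline arrays were described. The 20 other arrays entered only as run means set beside the rats and in a normalization over 24 arrays. The authors deposited a signal intensity and a detection p-value for each probe and array. They also deposited log2 values, which equalled log2 signals quantile-normalized over 24 arrays to within 0.00143. The sources used here do not name the scanner software. Intensities were background-corrected with the negative control probes inferred from the detection p-values, quantile-normalized and log2-transformed (neqc, limma 3.58.1, offset 16, R 4.3.3), and summarised with pandas 2.3.3. Quantile normalization narrows differences among the brightest probes. No columns of fold changes or p-values between groups were used, and no groups were tested.

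A single gene name was found for 13787 probes and none for 8730. Symbols were updated by Entrez identifier for 13747 probes and by accession for 5, and 35 were kept. The probe with the highest mean signal gave the level of a gene, and the probe detected in most rats its class. Named genes were up to 30 with the highest signals, up to 20 with the largest ranges, up to 8 detected and 6 undetected members of each list, all opioid, sodium channel and trophic receptor genes, and Gabbr2 and Gabrg1. Some genes of these lists are not reported here. Other genes named for their spread (Mgp, Rpl30, Ndufs5, Crh, Slc1a3 and the ribosomal genes) were chosen after their values were seen. The members and the 46 gene lists were chosen with earlier results of these data known. The steps were tested on simulated data. Alternatives were other detection cutoffs, normalizations and probe choices, and leaving out each rat. The number of arrays, 4, limits the precision, and the spread covers rats and array processing together.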

Additional observations from a re-analysis of the deposited data

Results flagged for a closer look

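Each of 64 named genes and 39 list means was examined for a rat that stood apart, by the gap to its nearest neighbour divided by the range of the 4 rats. Chance puts about 1 in 20 such groups of 4 past the limit used, where items are not chosen by their values. Some genes here were so chosen, and this rate does not apply to them. Hsp90aa1 was named for its large range, and Gbp2 is on a list chosen after the value of Cxcl10 was seen. Past the limit were 4 genes and 2 list means of the 103 examined. Sv2b had a gap of 0.8575 of the range, with rat 1 high, and Hsp90aa1 one of 0.8436, also with rat 1 high. Gbp2 had 0.8887, with rat 2 high. Oprd1 had 0.8943, with rat 4 high at 5.00, where it was not detected at the cutoff of 0.0005. The mean of the detected potassium channel genes had 0.8486, with rat 2 high, over values of 8.27, 8.29, 8.27 and 8.27 that differ by 0.02. The mean of the satellite glia genes had 0.8311, with rat 3 low, at 10.48, 10.45, 10.29 and 10.45.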

How the results depend on the processing

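No paired analysis was possible because there was 1 group and no comparison between groups. At a detection p of at most 0.05, 10071 probes and 7458 genes were detected in 4 of 4 rats and 9760 probes and 4404 genes in none, and the difference in median CpG ratio between the classes was 0.478, against 0.348. Leaving out each rat gave 6157 to 6273 probes and 4844 to 4931 genes detected in all, and 15487 to 15677 probes and 7919 to 8018 genes in none. The CpG difference without each rat, chosen after the data were seen, was 0.343 to 0.348. The pan-neuronal median percentile was 94.7 when the probes of each gene were averaged and 95.5 to 95.6 without each rat.

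The spread depended most on the settings. The median SD, 0.147, was 0.306 with arrays centred on their medians, 0.499 with background correction but no normalization between arrays, 0.104 over all probes, 0.110 after subtracting the run, and 0.115 to 0.154 without each rat, lowest without rat 1. The count of 286 probes with a range of at least 1 was 448, 4447, 646 and 81 under the same first 4 settings, 525 over probes detected in at least 1 rat, 1278 at a range of 0.5, and 48 to 267 without each rat, lowest without rat 1. Percentiles were recomputed under other normalizations, with the probes of a gene averaged, and without each rat. Of 640 gene percentiles 638 moved by less than the spread between rats, as did 442 of 450 list percentiles. Much of this was built in. Averaging probes moved the gene percentiles by 0, and the other normalizations, which largely keep the order of probes within an array, moved them by at most 1.06.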

Other observations

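Genes that interferons induce encode antiviral enzymes, guanylate-binding proteins and chemokines, and most of those detected in 4 of 4 rats were highest in rat 2. This list was chosen after the value of Cxcl10 was seen, so its counts are a description. Of 58 listed genes 43 had a named probe and 19 were detected in 4 of 4 rats. Of these 19, 15 were highest in rat 2, Cxcl10 among them, whereas 28.5% of all detected probes were. Ifitm1 (8.75, 7.89, 8.29 and 7.77), Ifitm3 and Psmb10 were highest in rat 1, and Psmb8 (8.65, 8.64, 8.93 and 8.04) in rat 3. Among genes detected in 3 rats, Ifi44 was highest in rat 3 (7.95, 7.54, 9.09 and 6.06) and Cxcl9 in rat 1 (8.23, 7.62, 7.58 and 6.06). Mx1, an antiviral GTPase, had 8.60, 9.49, 8.95 and 8.48 in rats 1 to 4. Irf7, the transcription factor that amplifies the interferon response, had 7.70, 8.38, 7.92 and 7.79. Gbp2, a guanylate-binding protein, had 7.96, 8.64, 7.87 and 7.89. Rat 2 was above the 3 other rats for each of these, and likewise for Oasl (6.81, 7.59, 7.05 and 7.03) and Oasl2 (7.39, 7.98, 7.41 and 7.32), both of the oligoadenylate synthetase family. The mean over the 19 genes was 8.39, 8.84, 8.52 and 8.31 in the saline-saline rats, beside 8.31, 8.34, 8.27 and 8.43 in the other arrays of their runs, where 3 of the 19 genes were highest in run 2.

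The interferon-stimulated response element has as its core 2 copies of GAAA with any 2 bases between them. It was searched on both strands of the 300-base RefSeq promoters (build GRCr8), and was present in 22 of the 34 interferon-induced genes with a promoter and in 3.36% of all 10980 promoters. Promoters were matched for 79.1% of the 43 measured genes, too few for the share to stand for the list. A match is a description and not a tested site. The bases before the start of 3 of the genes above are shown, 5′ to 3′, with the motif in capitals on whichever strand it lies.
Gbp2 (chr2:234005627-234005726, plus strand): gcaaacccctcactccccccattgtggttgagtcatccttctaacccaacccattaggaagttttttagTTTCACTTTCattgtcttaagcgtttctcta
Irf7 (chr1:205800024-205800123, minus strand): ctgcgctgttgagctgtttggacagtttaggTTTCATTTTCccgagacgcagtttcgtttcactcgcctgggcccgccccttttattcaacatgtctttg
Oasl2 (chr12:47383186-47383385, minus strand): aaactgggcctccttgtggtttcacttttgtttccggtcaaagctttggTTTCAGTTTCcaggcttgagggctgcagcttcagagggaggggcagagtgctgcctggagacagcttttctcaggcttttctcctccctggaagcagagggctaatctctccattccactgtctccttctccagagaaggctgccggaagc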
